A study of Mus musculus with 9 samples.

Results

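Interferon-inducible genes were followed in the mouse heart from the first day after birth to adulthood. The list named 9 genes, and 8 of them had a probe set that carries their symbol alone, out of 19938 genes measured in this way. These are Irf7, Irf9, Stat2, Ifit1, Ifit2, Ifit3, Ifi205 and Irgm1, each read by 1 probe set. Igtp shares its probe set with Irgm2 and was not analysed here. Cardiac muscle came from C57BL/6 mice, a common inbred strain, and was taken 24 hours, 7 days and 10 weeks after birth, without any treatment or genetic change in the labels. Total RNA of 3 samples per age, 9 in all, was labelled with biotin and hybridised to Affymetrix Mouse Gene 1.0 ST arrays. The values are log2 signals. The question behind these ages is which cardiac transcripts change after birth. Whether each sample is a different animal is not in the labels, so the p-values measure the spread between these samples, which may in part be technical.

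Interferons are secreted proteins that put cells into an antiviral state. Type I interferons act through a receptor whose kinases activate STAT proteins. STAT2 and IRF9 are parts of the complex ISGF3, which then binds a DNA element called ISRE in front of its target genes. IRF7 is itself a target and drives the production of more type I interferon. The IFIT proteins bind foreign RNA, the p200 proteins (to which Ifi205 belongs) carry domains that bind DNA, and the immunity-related GTPases such as Irgm1 act on membranes around intracellular pathogens. Interferon-gamma works through its own receptor, and its signal acts on a different element called GAS.

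The sequence before a RefSeq start of 5 of the 8 genes is shown because the ISRE letters occurred there. The 250 bases before each RefSeq start (GRCm38.p6) were searched on both strands for GAAA, any 2 bases and GAAA again, which on the other strand reads TTTC, any 2 bases and TTTC. They were found for Ifit1, Ifit3, Ifi205, Stat2 and Irgm1, which is 62.5% of the 8, against 531 of 15614 tested genes with such a window (3.4%). The 8 were listed as interferon-inducible genes, so an excess of these letters lay in the choice of genes and is no test. Among other interferon pathway genes with a window the share was 32.7%. The stretches run 5′ to 3′ on the gene's strand with up to 30 bases on either side, and capitals mark the matching letters.
Ifit1: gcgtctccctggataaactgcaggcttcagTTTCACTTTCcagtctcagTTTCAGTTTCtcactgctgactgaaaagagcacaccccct
Ifit3: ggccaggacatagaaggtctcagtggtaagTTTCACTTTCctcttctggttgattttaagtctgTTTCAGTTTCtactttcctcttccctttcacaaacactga
Ifi205: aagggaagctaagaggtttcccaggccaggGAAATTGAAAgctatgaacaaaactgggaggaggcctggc
Stat2: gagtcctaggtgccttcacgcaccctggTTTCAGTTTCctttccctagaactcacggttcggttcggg
Irgm1: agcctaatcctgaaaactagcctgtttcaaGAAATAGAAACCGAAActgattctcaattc

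The Ifit1 stretch lies at chr19:34640755-34640843 (plus strand) and the Ifit3 stretch at chr19:34583343-34583446 (plus strand). The listed span of the Ifit3 gene begins at chr19:34583119, so its stretch lies inside that span, before a later RefSeq start. The Ifi205 stretch lies at chr1:174031850-174031919 (minus strand), that of Stat2 at chr10:128270248-128270315 (plus strand) and that of Irgm1 at chr11:48871421-48871480 (minus strand). Ifit1 and Ifit3 each held 2 separate matches, both in the TTTC orientation. Irgm1 held 2 matches that overlap, ending 15 bases before the start, so its capitals form 1 longer run. Ifi205 and Stat2 held 1 each. Ifit2, Irf7 and Irf9 had no match in their windows. The GAS letters TTCNNNGAA, which read the same on both strands, were found only in front of Ifit2 among the 8, and in 7.71% of tested genes. A match is a run of letters and was not tested as a binding site.

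Of the 8 genes, all were higher at 10 weeks than at 7 days, by 0.49 to 4.38 on the log2 scale, and 7 were higher at 10 weeks than at 24 hours. Ifi205, Ifit1, Ifit3, Irf7 and Irgm1 were at least 2-fold higher at 10 weeks than at 7 days. In the first week the picture differed: Irf7 and Ifit1 fell, and the other 6 did not pass the test. The median difference of the 8 genes was -0.18 for 7 days against 24 hours, 1.39 for 10 weeks against 7 days and 0.94 for 10 weeks against 24 hours. Over all genes tested these medians were -0.002, 0.04 and 0.04.

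**Figure D1:**
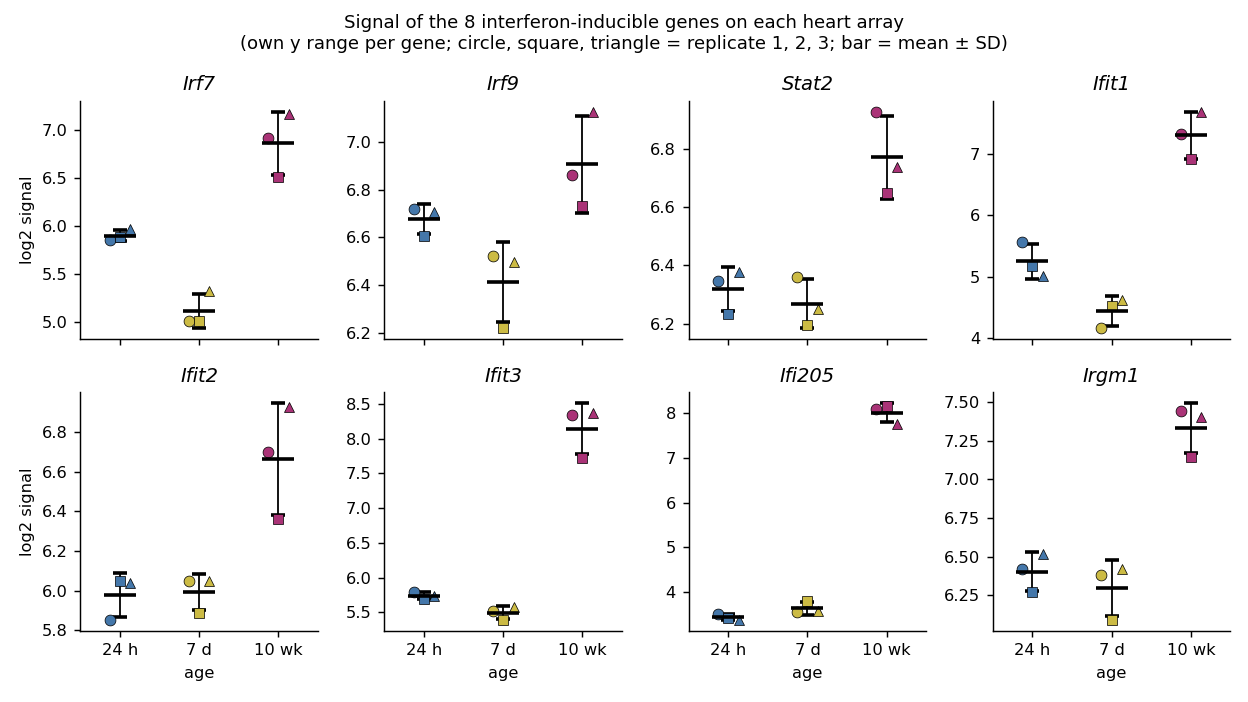
Log2 signal (y axis, own range per gene) of the 8 genes on the 9 heart arrays by age (x axis: 24 hours, 7 days, 10 weeks). Points are single arrays (circle, square and triangle for replicates 1, 2 and 3) and bars give the mean ± SD; every 10-week point lies above all younger points of the same gene.

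These counts have to be read against the whole array. Calls were made with limma over all 19938 genes, where the adjusted p had to be under 0.05. Between 7 days and 24 hours 10.1% of all genes were called, with 5.27% higher (0.426% at least 2-fold) and 4.81% lower at 7 days. At 10 weeks against 7 days 35.9% were called, with 17.0% higher (2.07% at least 2-fold) and 18.9% lower. At 10 weeks against 24 hours 40.1% were called, with 19.5% higher (598 genes at least 2-fold) and 20.6% lower. After centring arrays on their medians, 61.3% of the calls at 10 weeks against 7 days were higher, against 47.3% as deposited, and at 7 days against 24 hours 41.6%, against 52.3% as deposited. The 10-week and 7-day arrays did not overlap for 8 of the 8 genes, and for 44.3% of all genes. The 10-week and 24-hour arrays did not overlap for 8 of the 8 either, and for 48.2% of all genes. For 7 days against 24 hours it was 5 of the 8 and 27.1%.

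The arrays carried the heart's own signature and some foreign transcripts. The mean log2 signal of 7 cardiomyocyte genes lay between 12.52 and 12.60 on each array, and arrays of 1 age correlated at 0.994 to 0.998 over genes, which are not independent replicates. Ucp1, which marks brown fat, reached 11.23 and 9.27 on 7-day replicates 2 and 3, against 4.30 on 7-day replicate 1 and 3.92 to 4.27 at the other ages. The liver gene Alb measured 7.81 on 7-day replicate 2, 5.27 and 6.04 on 24-hour replicates 1 and 3, and 3.73 to 4.16 on the remaining arrays. Signal of Eif2s3y, a Y-linked gene, was 2.87 to 3.30 at 10 weeks and 6.06 to 7.70 at the younger ages; Xist signal was 8.26 to 9.56 over all 9 arrays. Age and this sex-linked signal cannot be told apart in the comparisons with 10 weeks.

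Among the transcription factors, Irf7 (probe set 10569102) had the deepest dip and the largest later rise. It measured 5.85, 5.88 and 5.96 on the 24-hour arrays, 5.005, 5.01 and 5.32 on the 7-day arrays and 6.91, 6.51 and 7.16 on the 10-week arrays. The 3 ages did not overlap, with 7 days lowest and 10 weeks highest. At 7 days it fell by 0.79 on the log2 scale relative to 24 hours (± 0.15 SE, adjusted p = 0.00746), which is 1.72-fold lower. That fall passed with any single array left out, and its adjusted p was 0.0846 with the difference at -0.89 when 7-day replicates 2 and 3 were both left out. At 10 weeks Irf7 was 3.36-fold higher than at 7 days (1.75 ± 0.15, adjusted p = 6.69e-06) and 1.95-fold higher than at 24 hours (0.96 ± 0.15, adjusted p = 0.000375).

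The partners in ISGF3 moved less. Irf9 (probe set 10415319), its DNA-binding subunit, measured 6.72, 6.61 and 6.70 on the 24-hour arrays, 6.52, 6.22 and 6.50 on the 7-day arrays and 6.86, 6.73 and 7.13 on the 10-week arrays. The 7-day arrays lay below all others, but the difference of -0.26 from 24 hours did not pass (adjusted p = 0.196). At 10 weeks Irf9 was 1.41-fold higher than at 7 days (0.49 ± 0.11, adjusted p = 0.00496). Against 24 hours its 10-week difference was 0.23 ± 0.11 (adjusted p = 0.126), with a 95% interval from -0.01 to 0.47.

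Stat2 (probe set 10367224), the activating subunit of ISGF3, measured 6.35, 6.23 and 6.38 on the 24-hour arrays, 6.36, 6.19 and 6.25 on the 7-day arrays and 6.93, 6.65 and 6.74 on the 10-week arrays. The 2 younger ages overlapped and their difference was -0.05, with a 95% interval from -0.24 to 0.13. Stat2 was 1.42-fold higher at 10 weeks than at 7 days (0.50 ± 0.08, adjusted p = 0.000768) and 1.37-fold higher than at 24 hours (0.45 ± 0.08, adjusted p = 0.00131). Without 7-day replicates 2 and 3, which leaves 1 array at that age, the rise from 7 days did not pass for Irf9 (adjusted p = 0.114), Stat2 (adjusted p = 0.0530) or Ifit2 (adjusted p = 0.0659); their differences were then 0.38, 0.41 and 0.62.

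The IFIT genes lie in a cluster on chromosome 19, and their 3 members rose by unequal amounts. Ifit1 (probe set 10462623), which binds RNA caps that lack the host's methylation, measured 5.57, 5.18 and 5.01 on the 24-hour arrays, 4.16, 4.52 and 4.63 on the 7-day arrays and 7.33, 6.92 and 7.68 on the 10-week arrays. The 7-day arrays were the lowest and the 10-week arrays the highest, with no overlap. At 10 weeks it was 7.32-fold higher than at 7 days (2.87 ± 0.20, adjusted p = 1.83e-06), the 16th largest rise of all genes. Against 24 hours it was 4.16-fold higher (2.06 ± 0.20, adjusted p = 1.48e-05).

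The first-week fall of Ifit1 was less secure. At 7 days it fell by 0.82 on the log2 scale relative to 24 hours (± 0.20 SE, adjusted p = 0.0294), or 1.76-fold. Leaving out a 24-hour array gave an adjusted p of 0.118 for replicate 1 and 0.0783 for replicate 2. Leaving out a 7-day array gave 0.108, 0.0599 and 0.0547 for replicates 1, 2 and 3, and leaving out replicate 1 of 10 weeks gave 0.0513. The difference itself stayed between -0.94 and -0.66 when 1 array was left out, and was -1.09 (adjusted p = 0.119) without 7-day replicates 2 and 3.

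Ifit3 (probe set 10462618) measured 5.79, 5.70 and 5.74 on the 24-hour arrays and 5.52, 5.39 and 5.57 on the 7-day arrays. On the 10-week arrays it measured 8.34, 7.72 and 8.37. It was 6.26-fold higher at 10 weeks than at 7 days (2.65 ± 0.15, adjusted p = 3.87e-07) and 5.28-fold higher than at 24 hours (2.40 ± 0.15, adjusted p = 5.07e-07). Every 7-day array lay below every 24-hour array, yet the difference of -0.25 did not pass (adjusted p = 0.417), and it passed only without 10-week replicate 2 (adjusted p = 0.0414).

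Ifit2 (probe set 10462613), an RNA-binding relative, measured 5.85, 6.05 and 6.04 on the 24-hour arrays, 6.05, 5.89 and 6.05 on the 7-day arrays and 6.70, 6.36 and 6.92 on the 10-week arrays. The younger ages overlapped, with a difference of 0.01 and a 95% interval from -0.27 to 0.29. At 10 weeks Ifit2 was 1.59-fold higher than at 7 days (0.67 ± 0.13, adjusted p = 0.00174) and 1.61-fold higher than at 24 hours (0.68 ± 0.13, adjusted p = 0.00131).

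Ifi205 (probe set 10360406), of the p200 family, showed the steepest change of the 8. It measured 3.51, 3.42 and 3.38 on the 24-hour arrays, 3.54, 3.80 and 3.56 on the 7-day arrays and 8.10, 8.17 and 7.76 on the 10-week arrays. The younger values all lie below 3.92, the value under which 25% of all gene means fall, and for signals this dim the arrays may understate a fold change. At 10 weeks Ifi205 was 20.8-fold higher than at 7 days (4.38 ± 0.11, adjusted p = 1.01e-08), the 2nd largest rise of all genes. Against 24 hours it was 23.8-fold higher (4.57 ± 0.11, adjusted p = 1.80e-09). In the first week its difference was 0.20, which did not pass (adjusted p = 0.367).

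Irgm1 (probe set 10385500), a GTPase that regulates other immunity-related GTPases, measured 6.42, 6.27 and 6.52 on the 24-hour arrays, 6.38, 6.09 and 6.42 on the 7-day arrays and 7.44, 7.14 and 7.41 on the 10-week arrays. The younger ages overlapped (difference -0.11, 95% interval from -0.35 to 0.14). At 10 weeks Irgm1 was 2.05-fold higher than at 7 days (1.03 ± 0.11, adjusted p = 3.61e-05) and 1.90-fold higher than at 24 hours (0.93 ± 0.11, adjusted p = 6.08e-05). Both comparisons use the same 10-week arrays.

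**Figure D2:**
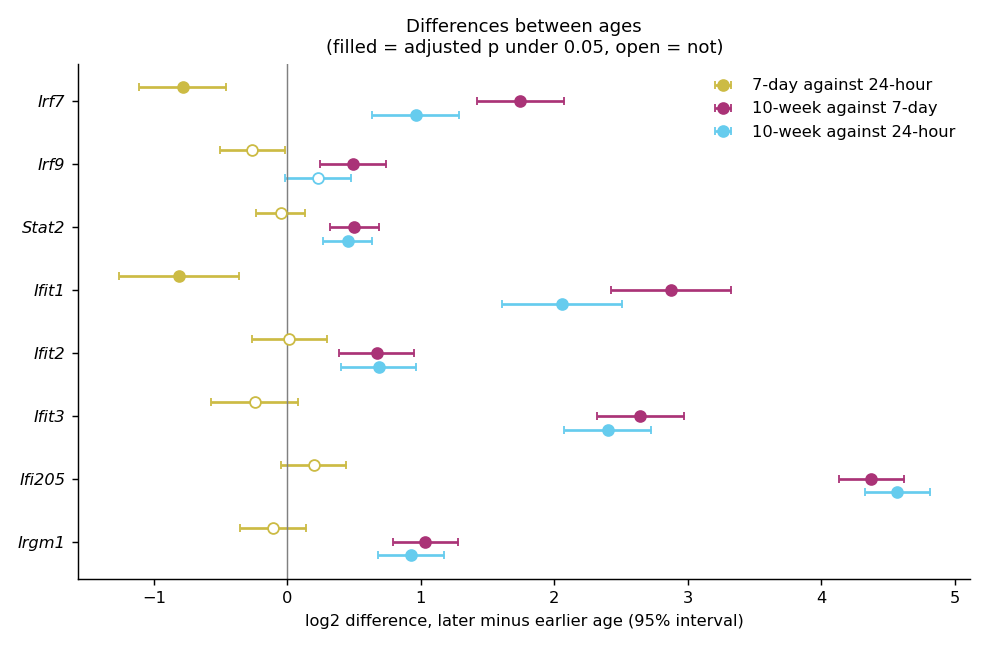
Log2 difference between ages, later minus earlier (x axis), with its 95% interval for each of the 8 genes (y axis); filled points passed limma's test at an adjusted p under 0.05 and open points did not. The 10-week differences from 7 days run from 0.49 for Irf9 to 4.38 for Ifi205, and in the first week only Irf7 and Ifit1 have filled points.

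Among the 10-week arrays, replicate 2 was the lowest for 7 of the 8 genes, all except Ifi205. Over all genes replicate 2 was the lowest 10-week array in 35.4% of cases, and in 38.2% of the 3388 genes higher at 10 weeks than at 7 days. Ifit3 measured 7.72 on that array and 8.34 and 8.37 on the others, and Ifit1 measured 6.92 against 7.33 and 7.68. Ifi205 was highest there, at 8.17. Of the other interferon pathway genes that were higher at 10 weeks than at 7 days, 50 of 78 (64.1%) were lowest on the same array. The number of the 8 genes called at 10 weeks against 7 days was 8 without it, as with it.

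**Figure D3:**
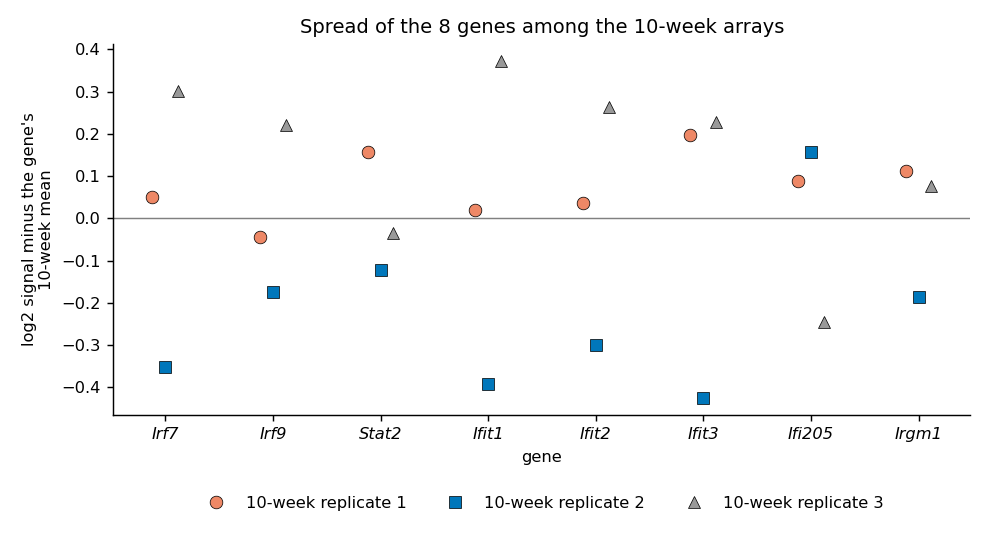
Log2 signal of each 10-week array minus the gene's 10-week mean (y axis) for the 8 genes (x axis). Replicate 2 (squares) is the lowest array for 7 genes and the highest for Ifi205.

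The wider pathway was read from lists of 177 other genes, of which 147 were tested. At 10 weeks 78 of the 147 were higher than at 7 days and 5 were lower, with a median difference of 0.31. Against 24 hours 84 were higher and 5 lower, with a median of 0.31. At 7 days 11 were higher and 6 lower than at 24 hours, with a median of -0.02. These shares, 53.1% higher at 10 weeks against 7 days and 7.48% higher in the first week, stand beside 17.0% and 5.27% of all genes.

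**Figure D4:**
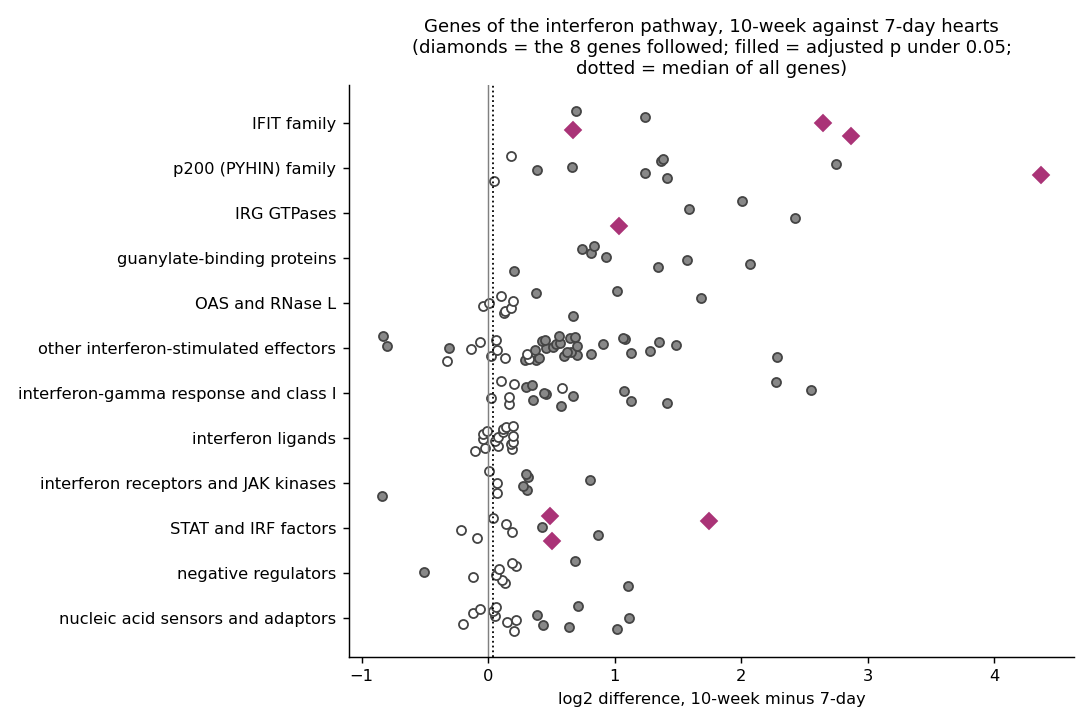
Log2 difference of 10-week minus 7-day hearts (x axis) for each tested gene of 12 interferon pathway lists (y axis). Diamonds are the 8 genes followed, filled symbols passed at an adjusted p under 0.05 and the dotted line is the median of all genes (0.04); all interferon ligands are open symbols near 0.

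The ligands themselves showed little signal. None of 16 interferon genes passed limma's test at 10 weeks against 7 days, and 3 were higher and none lower at an unadjusted p under 0.05. In the first week none passed either, and 2 were lower at an unadjusted p under 0.05. Of these genes 14 had a mean below 5.57, the median of all gene means, and 9 lay below 3.92. Ifnb1 averaged 3.50 ± 0.14 at 10 weeks and 3.54 ± 0.02 at 7 days (SD, n = 3 each). Ifng averaged 4.30 ± 0.21 at 10 weeks and 4.16 ± 0 at 7 days (adjusted p = 0.270). Its 3 values at 7 days were identical, so that SD does not measure the spread between samples. Against 24 hours Ifna11, at 0.21, and Ifne, at 0.14, passed at 10 weeks (adjusted p = 0.0337 and 0.0460).

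Of 9 receptor and JAK kinase genes 5 were higher and 1 lower at 10 weeks than at 7 days. The 1 that fell was Ifnar1, a chain of the type I receptor, which measured 7.19, 7.27 and 7.31 at 10 weeks and 7.99, 8.20 and 8.11 at 7 days. It fell by 0.84 on the log2 scale (± 0.06 SE), while Il10rb, shared by the interferon-lambda receptor, rose by 0.81 and Jak1 by 0.31. Ifnar2, the other chain of the type I receptor, rose by 0.38 in the first week (adjusted p = 0.00195). Among 7 further STAT and IRF factors Irf1 and Irf4 rose at 10 weeks against 7 days. Irf1, a factor of the interferon-gamma response, measured 6.86, 6.63 and 6.65 at 10 weeks and 5.85, 5.84 and 5.84 at 7 days. Unlike Irf7 it was also higher at 7 days than at 24 hours, by 0.57 (adjusted p = 0.00192).

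The effector families differed in how many of their measured members rose. The remaining IFIT genes, Ifit3b and Ifit1bl2, were 1.24 and 0.69 higher at 10 weeks than at 7 days on the log2 scale. Ifit3b is a close copy of Ifit3, and whether their probes read each other's transcripts is not known. Of 9 further p200 genes 7 rose, led by Ifi207, which measured 8.99, 9.06 and 9.27 at 10 weeks and 6.22, 6.36 and 6.48 at 7 days. The p200 genes are close relatives too, so signal shared between them cannot be told apart here. All 3 further immunity-related GTPases rose: Iigp1 by 2.43, Gm4951 by 2.01 and Gm12250 by 1.59.

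Guanylate-binding proteins, large GTPases that attack pathogen vacuoles, rose in 8 of 8 cases at 10 weeks against 7 days, with a median of 0.88. Gbp4 rose by 2.07, Gbp5 by 1.57 and Gbp3 by 1.34. Of 11 genes of the OAS and RNase L arm, which makes and reads a messenger that triggers RNA decay, 4 rose and none fell, with a median of 0.18. Oas2 measured 6.29, 6.29 and 6.24 at 10 weeks and 4.50, 4.68 and 4.59 at 7 days. Of 39 other effectors 27 rose and 3 fell (median 0.52), with Ifi27l2a rising by 2.29, Rtp4 by 1.49, Sp100 by 1.35 and Trim30a by 1.28. The 3 that fell, named after their values were seen, were Ube2l6, Lgals9 and Ifitm2, which fell by 0.83, 0.80 and 0.31.

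Of 18 genes of the interferon-gamma response and class I peptide loading 12 rose at 10 weeks against 7 days and none fell, with a median of 0.45. Cxcl9, a chemokine for T cells, measured 8.20, 7.68 and 8.38 at 10 weeks and 5.63, 5.34 and 5.64 at 7 days, a rise of 2.55 (± 0.16 SE). Cd274, the checkpoint ligand PD-L1, rose by 2.28 and the immunoproteasome gene Psmb8 by 1.41. Among 15 sensors of nucleic acid and their adaptors 6 rose and none fell, including Tlr7 by 1.12 and Ifih1 by 1.02. Among 10 negative regulators 2 rose (20%) and 1 fell (10%), beside 17.0% of all genes higher and 18.9% lower. Usp18, which shuts off the type I receptor, rose by 1.11 and Samhd1 by 0.69. Ptpn2, a phosphatase of JAK and STAT proteins, fell by 0.50.

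Markers of immune cells also moved with age. In a bulk sample fewer cells of a type and less RNA per cell cannot be told apart. Of 15 macrophage markers 14 were higher and none lower at 10 weeks than at 7 days, and their mean signal lay between 7.25 and 7.44 at 10 weeks and between 6.43 and 6.54 at 7 days. In the first week 8 of the 15 rose and 1 fell, beside 5.27% of all genes higher and 4.81% lower. Lyz2, a lysozyme gene of macrophages, measured 7.30, 7.24 and 7.28 at 24 hours, 8.36, 8.51 and 8.25 at 7 days and 10.21, 10.19 and 10.18 at 10 weeks. The part of macrophages in the rise of the 8 genes was not tested.

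Of 4 general leucocyte genes 3 rose at 10 weeks against 7 days, and their mean signal ran from 6.57 to 7.06 at 10 weeks and from 6.15 to 6.16 at 7 days. None of 6 T cell markers and none of 5 B cell markers passed in that comparison; 1 T cell marker and no B cell marker differed at an unadjusted p under 0.05. Dendritic cell markers rose in 3 of 6 cases (Itgax by 0.37), with a mean signal of 4.12 to 4.25 at 10 weeks and 3.87 to 3.95 at 7 days. Of 3 plasmacytoid dendritic cell markers Siglech rose by 0.37 and Cox6a2 by 0.27, while Ccr9 differed by -0.14 and did not pass. Cox6a2, which heart muscle also expresses, averaged 12.17 at 7 days and 12.44 at 10 weeks. Siglech averaged 4.16 and 4.53, so Cox6a2 does not single out these cells here. The natural killer cell gene Nkg7 rose by 0.38 and the neutrophil gene Ly6g by 0.37, each as 1 of 6 in its list. That is 16.7% of each list, beside 17.0% of all genes higher in that comparison. The medians of the 2 lists were 0.13 and 0.06. Of 10 endothelial markers 1 rose and 6 fell, and none of 7 cardiomyocyte markers passed in the same comparison, where 2 were higher and 1 lower at an unadjusted p under 0.05. At 10 weeks against 24 hours 4 of the 6 T cell markers were higher (Cd3g by 0.43) and none was lower. The 6 dendritic cell markers likewise had 4 higher and none lower, beside 19.5% of all genes higher. None of the 5 B cell markers passed there. The part of these cells in the result was not tested either.

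**Figure D5:**
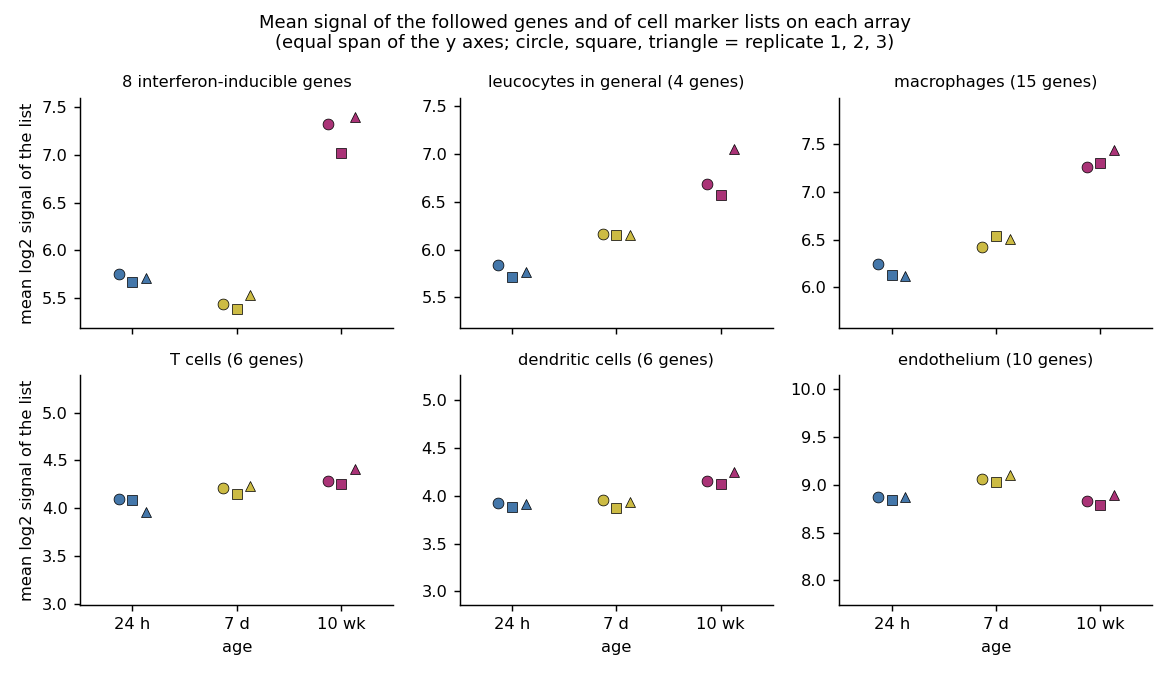
Mean log2 signal (y axis, equal span in each panel) of the 8 genes and of 5 lists of cell markers on the 9 arrays by age (x axis). The 8 genes average 7.02 to 7.40 at 10 weeks and 5.39 to 5.54 at 7 days. The 15 macrophage markers average 7.25 to 7.44 at 10 weeks and 6.43 to 6.54 at 7 days.

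The genes whose values ran most like the average of the 8 over the 9 arrays were Adgrg1, Slc4a3, Auh, Zfp106, Xdh and Tfb2m, with Pearson's r from 0.992 to 0.997. They were ranked among 1472 genes whose age means span at least 1 on the log2 scale, and 203 of these reached 0.95, so a high r mostly records a high 10-week group. None of the 6 was in the interferon lists. Xdh, which makes uric acid, averaged 5.29 at 24 hours, 4.66 at 7 days and 8.26 at 10 weeks, and Adgrg1, an adhesion receptor, averaged 6.85, 6.74 and 7.76. Within the 8, Ifit3 had the highest r with the mean of the other 7, at 0.997, and Irf9 the lowest, at 0.803.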

How the data were processed

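The deposited table holds 1 log2 signal per feature and array, made by the authors; MAS5 5.0 is named per the submitters' processing notes, and no source used here states how probes were summarised or arrays were normalized. The highest value, 13.58, exceeds the natural log of a 16-bit maximum (11.09), so base 2 was taken. Array medians lie within 0.05, and values were used as deposited. Of 35556 features 21789 carry 1 gene symbol; the probe set with the highest mean was used per gene. Precision is limited by the 3 arrays of each age.

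A linear model with a mean for each age used the 9 arrays together (limma 3.58.1, R 4.3.3, eBayes with an intensity trend, 6 residual degrees of freedom), with Benjamini-Hochberg adjustment over 19938 genes. SE and 95% intervals come from that fit, SD from the 3 arrays. The fit was tested on simulated data. Tables used Python 3.11.15. Alternatives were other scalings, variance priors, subsets of arrays and genes, a replicate block and a fold limit.

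The 8 genes and all lists were chosen with earlier results of these data known. The text names the 8 genes, up to 4 called genes per list and comparison with the largest differences, list members that did not pass (Ifnb1, Ifng, Ccr9), the 6 genes most like the average of the 8, and Xist, Eif2s3y, Ucp1 and Alb as checks. Ube2l6, Lgals9 and Ifitm2 were added after their values were seen. Promoter windows are RefSeq's.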

Additional observations from a re-analysis of the deposited data

How the results depend on the processing

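Without 7-day replicates 2 and 3, which carried brown fat transcripts, 0 of the 8 genes passed limma's test at 7 days against 24 hours (2 at an unadjusted p under 0.05), 5 passed at 10 weeks against 7 days and 7 at 10 weeks against 24 hours; 1 array then stands for 7 days. All genes called were then 516 and 4156 in the comparisons with 7 days, against 2009 and 7165 with all arrays, and 4 of 147 pathway genes were called in the first week, against 17. The first-week difference of Stat2 turned to 0.042. With a fold of at least 2 required, 0, 5 and 3 of the 8 genes, 125, 1006 and 1273 of all genes and 1, 29 and 30 of the pathway genes were called in the 3 comparisons. With only the 6 arrays compared, 28 pathway genes were called in the first week. When 1 array was left out, the first-week count was 1 to 3 of the 8 genes and 1149 to 2316 of all genes. Ifit2's first-week difference, 0.01, turned to -0.015 with median centring and -0.0085 with quantile normalization, and ran from -0.049 to 0.067 when 1 array was left out. Irf9 passed at 10 weeks against 24 hours with quantile normalization (0.31, adjusted p = 0.0463). The cause was not tested. In the replicate block fit 2, 8 and 7 of the 8 genes passed, as without it, and 1734, 6916 and 7724 of all genes. Deviations of arrays that share a number correlated at -0.17 to 0.13 and of others at -0.22 to 0.25, so the numbers were not taken as pairs. Among the repeats for single genes 428 kept direction and call, 20 lost the call, 2 gained one and 6 turned in sign. Many of these repeats could not change the difference, such as the variance priors and the fold limit. The same holds for using the probe set with the lowest mean, as each of the 8 genes has 1 probe set. The tally is therefore no measure of stability. Dim signals, such as those of the ligands and of Ifi205 before 10 weeks, limit the differences that can be seen.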

Other observations

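Besides Irf7 and Ifit1, 5 further interferon-stimulated genes were lower at 7 days than at 24 hours and higher at 10 weeks than at 7 days: Ifi207, Ifi27l2a, Lgals3bp, Oasl2 and Rtp4. They are 5 of 147 pathway genes (3.4%), where 246 of 19938 genes (1.23%) had this course; both steps use the same 7-day arrays. Rtp4 measured 6.50, 6.46 and 6.58 on the 24-hour arrays, 5.68, 5.35 and 5.96 on the 7-day arrays and 7.26, 6.74 and 7.45 on the 10-week arrays. Lgals3bp, which encodes a secreted galectin-binding protein, fell by 0.95 at 7 days relative to 24 hours (adjusted p = 0.000973), and its 10-week arrays, at 8.45, 8.50 and 8.93, stood beside 24-hour arrays at 8.88, 8.77 and 8.95. Oasl2, an OAS-like gene, measured 7.09, 6.97 and 6.92 at 24 hours, 6.13, 6.19 and 6.41 at 7 days and 7.30, 6.95 and 7.54 at 10 weeks.

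Of 18 genes of the interferon-gamma response and class I list 2 were higher at 7 days than at 24 hours and none was lower, beside 5.27% of all genes higher. Cxcl9 was 0.80 higher at 7 days than at 24 hours (adjusted p = 0.00898) and Psmb8 0.45 higher (adjusted p = 0.0235). Among 39 other effectors 4 were higher and 4 lower, and Ifi27 rose by 1.11.

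The ISRE letters stood in front of 37 of 113 other pathway genes with a promoter window (32.7%) and of 19 of the 55 among them that were higher at 10 weeks than at 7 days (34.5%). They stood in front of 116 of 2702 genes higher in that comparison (4.29%) and of 29 of the 335 that were at least 2-fold higher (8.66%), against 3.4% of tested genes. Both of these counts include interferon pathway genes and members of the 8. The pathway lists were chosen as interferon genes too, so their share is no test either.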
